A study of Mus musculus with 12 samples.

Results

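Accessible chromatin was compared between SgshKO and wild-type (WT) C57BL/6 mice in 3 sorts of forebrain cells, and the question here was at which regions the genotype change in microglia differed from that in nuclei of the other sorts. The regions were 16761 peaks that overlapped one to one, by at least 50% of each peak's length, in the separate peak tables of the 3 sorts. They made up 18.26% of the 91770 microglia peaks, 15.57% of the 107627 peaks of NeuN+ nuclei and 20.3% of the 82577 peaks of Olig2+ nuclei. For each peak, the SgshKO minus WT difference in microglia was compared with the mean of the same difference in both nuclei sorts. That difference of differences, on the scale log2(normalized tags + 1), is called the interaction below. A positive interaction means that the signal went up more, or down less, in microglia than in nuclei.

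All mice were 4 months old. Microglia were live (DAPI-negative) CD11b+, CX3CR1+ cells with low CD45. The other sorts were lightly formaldehyde-fixed nuclei, negative for PU.1 and positive for either NEUN (and negative for OLIG2) or OLIG2 (and negative for NEUN). Each of the 6 groups had 2 libraries, 12 in all. The labels give no type of Sgsh allele, sex, batch or number of animals, so p-values measure the spread between libraries, which may be technical. Live cells and fixed nuclei were prepared differently, and sort and preparation cannot be told apart. The interaction uses only differences within a sort. Even so, a genotype change that depends on preparation cannot be told apart from one that depends on cell type.

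In ATAC-seq a transposase cuts DNA that is free of nucleosomes, so that promoters and active enhancers give peaks of tags. SGSH is a lysosomal sulfatase that removes sulfate groups from heparan sulfate, and its loss causes Sanfilippo syndrome, in which undegraded heparan sulfate builds up in lysosomes. Microglia are the phagocytes of the brain parenchyma, and NeuN and OLIG2 mark neurons and the oligodendrocyte lineage. Lysosome and autophagy genes are targets of the related transcription factors MITF, TFEB and TFE3. GC boxes are short promoter sequences bound by SP and KLF family factors.

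The regions that led the interaction were promoters. Of the 8 with the largest increases, 7 matched a RefSeq promoter sequence (GRCm38.p6) and 6 of these hold a GC box. A GC box stood in 34.5% of all matched promoters and in 57.5% of those called higher, the set from which these were taken. The stretches below, of 30 bases each and read 5′ to 3′ on the strand of the gene, show that word in capitals, as GCCCCGCC or its reverse complement GGCGGGGC. They are shown because the share of promoters with this word differed between called peaks and the rest, as described further on. The word was found by counting short words in the promoters after the values were seen, so these stretches do not test it.
Fam210b, chr2:172345539-172345568, plus strand: aaaggtgttggGGCGGGGCctgtcgggggg
Fau, chr19:6057770-6057799, plus strand: cagccgggctcGCCCCGCCtccctctgcgc
Ulk1, chr5:110810117-110810146, minus strand: gagctccgcagGCCCCGCCcatcgtcccgc
Cenpc1, chr5:86065634-86065663, minus strand: ctgggcaggagGGCGGGGCgaactgagaaa
Marf1, chr16:14159275-14159304, minus strand: gttttgcgacaggggcggGGCGGGGCggaa
Ahsa2, chr11:23498114-23498143, minus strand: tagggcagagaGGCGGGGCgaagtcggggg

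Library totals were 10771659 to 11804222 tags in microglia, 14326703 to 17706971 in NeuN+ nuclei and 15044194 to 19555924 in Olig2+ nuclei, and the median peak held 17 to 39 reads. The share of tags in peaks was 55.8% and 48.7% in WT and 67.4% and 53.7% in SgshKO microglia, 26.7% and 25.9% against 21.5% and 21.2% in NeuN+ nuclei, and 30.9% to 31.8% in all 4 Olig2+ libraries. This share moved with genotype in NeuN+ nuclei, and its part in the interaction was not tested beyond the scalings given below. Each sort had start-site peaks at all 9 of its own marker genes. Of the 9 microglia markers, 1 had such a peak in NeuN+ and 2 in Olig2+ nuclei, with the microglia-defining genes P2ry12, Tmem119, Cx3cr1 and Csf1r lacking one in both. Among peaks of microglia, 3 of 9 neuron, 5 of 9 oligodendrocyte lineage, 3 of 7 astrocyte and 3 of 6 endothelial markers had one; Rbfox3, Sox10, Gfap and Aqp4 had none. Their summed signal in microglia was 207 and 235 against 320 and 175 for neuron, 327 and 285 against 327 and 293 for oligodendrocyte lineage, 125 and 86.4 against 89.2 and 75.2 for astrocyte, and 283 and 236 against 253 and 197 for endothelial markers. The summed signal at 4 of 8 blood myeloid markers was 220 and 175 in WT and 261 and 248 in SgshKO microglia; Ccr2, Ly6c2, Plac8 and S100a9 had no start-site peak there. On the Y chromosome the summed signal in SgshKO was 0.503 times that in WT in microglia (6 peaks), 0.438 times in NeuN+ (22 peaks) and 0.603 times in Olig2+ nuclei (17 peaks). The part of the myeloid and Y-linked signal in the interaction was not tested, except that without the sex chromosomes 4668 of 16387 peaks were called in place of 4811 of 16761.

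The targeted gene was looked at first. Sgsh had a shared peak at its start site (chr11:119355381-119355624), with 184 and 162 tags in WT and 257 and 260 in SgshKO microglia. It had 34.5 and 22.6 against 9.07 and 13.3 in NeuN+ nuclei, and 65.9 and 74.2 against 60.9 and 69.1 in Olig2+ nuclei. Microglia values were higher and NeuN+ values lower in SgshKO without overlap, and the Olig2+ groups overlapped. In limma fits of each sort's own table, the microglia change of 0.58 did not pass (adjusted p = 0.196). The NeuN+ change of -1.27 did (adjusted p = 0.00256). The Sgsh interaction was 1.27 ± 0.31 (SE; limma adjusted p = 0.00185). After quantile normalization it was 0.83 (adjusted p = 0.0561), and without the second WT microglia library it also missed the threshold (adjusted p = 0.0698). Accessibility of this promoter does not check the genotype, since the labels do not describe the allele.

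Across the shared peaks the interaction was mostly positive. With the authors' scaling to library totals its median was 0.37, and limma called 4811 peaks (28.7% of those tested, Benjamini-Hochberg adjusted p under 0.05), of which 4618 (27.6%) were higher and 193 (1.15%) lower. After quantile normalization within each table, which gives the libraries of a sort the same distribution, the median was 0.12 and 2577 peaks (15.4%) were called, 2146 higher and 431 lower. The median was 0.28 with median-of-ratios scaling and 0.01 with scaling to the sum of tags in peaks. Since the scaling moves the median of all peaks, single values should be read against 0.37. The medians of start-site peaks (0.54) and of the quintile with the strongest signal (0.89), given below, were higher. They are the closer level for strong promoter peaks. After quantile normalization the higher calls were 12.8% and the lower ones 2.57% of the peaks tested. Peaks called in the same direction under both scalings numbered 2271 (13.5%), of which 2120 (12.6%) were higher and 151 (0.901%) lower, and these are the peaks called higher or lower below. Centring each library on the median of the shared peaks, a scaling added after the values were seen, still called 1931 of the 2120 higher and all 151 lower peaks, but split its 3601 calls into 2667 higher and 934 lower.

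The sorts contributed unequally. With the deposited totals, the shared peaks had a median SgshKO minus WT change of 0.07 for microglia, -0.55 for NeuN+ nuclei and -0.05 for Olig2+ nuclei. The same medians were -0.02, -0.25 and -0.02 after quantile normalization. Against NeuN+ nuclei alone the median interaction was 0.60 with 6389 peaks called (38.1%), 37% higher and 1.09% lower; after quantile normalization 18.1% were called, 15.7% higher and 2.43% lower. Against Olig2+ nuclei alone it was 0.17 with 3218 called (19.2%), 16.2% higher and 2.98% lower; after quantile normalization 15.7% were called, 10.6% higher and 5.11% lower. Both of these comparisons share the microglia libraries. Of the 2271 peaks called under both scalings, 1844 also passed against each nuclei sort separately, 1791 of them higher and 53 lower.

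Among the 2120 peaks called higher, the median change was 1.13 in microglia, -0.72 in NeuN+ and -0.03 in Olig2+ nuclei. In separate fits of each sort's own table, 1465 of them were called up in microglia, 1727 down in NeuN+ nuclei, 344 down in Olig2+ nuclei and 286 up in Olig2+ nuclei. After quantile normalization these counts were 1501, 555, 320 and 238. Of all 16761 shared peaks, 10.8% were called up in microglia, 50.6% down in NeuN+ nuclei and 11.4% down and 10.6% up in Olig2+ nuclei with the deposited totals. Over whole tables, 7.37% of microglia peaks were called (5.05% up, 2.33% down), 29.8% of NeuN+ peaks (10.2% up, 19.6% down) and 19.8% of Olig2+ peaks (8.17% up, 11.7% down). The microglia change made up 50% or more of the interaction at 93.5% of the higher peaks. Among the 151 lower peaks the median change was -1.31 in microglia, -0.21 in NeuN+ and 0.22 in Olig2+ nuclei. These medians and the share of 93.5% describe peaks chosen on the same values, and that share was not counted over all shared peaks. With the deposited totals, 129 of the shared peaks (0.770%) were called in opposite directions in microglia and in both nuclei sorts. Of the peaks called higher, 123 did so, and 35 after quantile normalization.

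**Figure D1:**
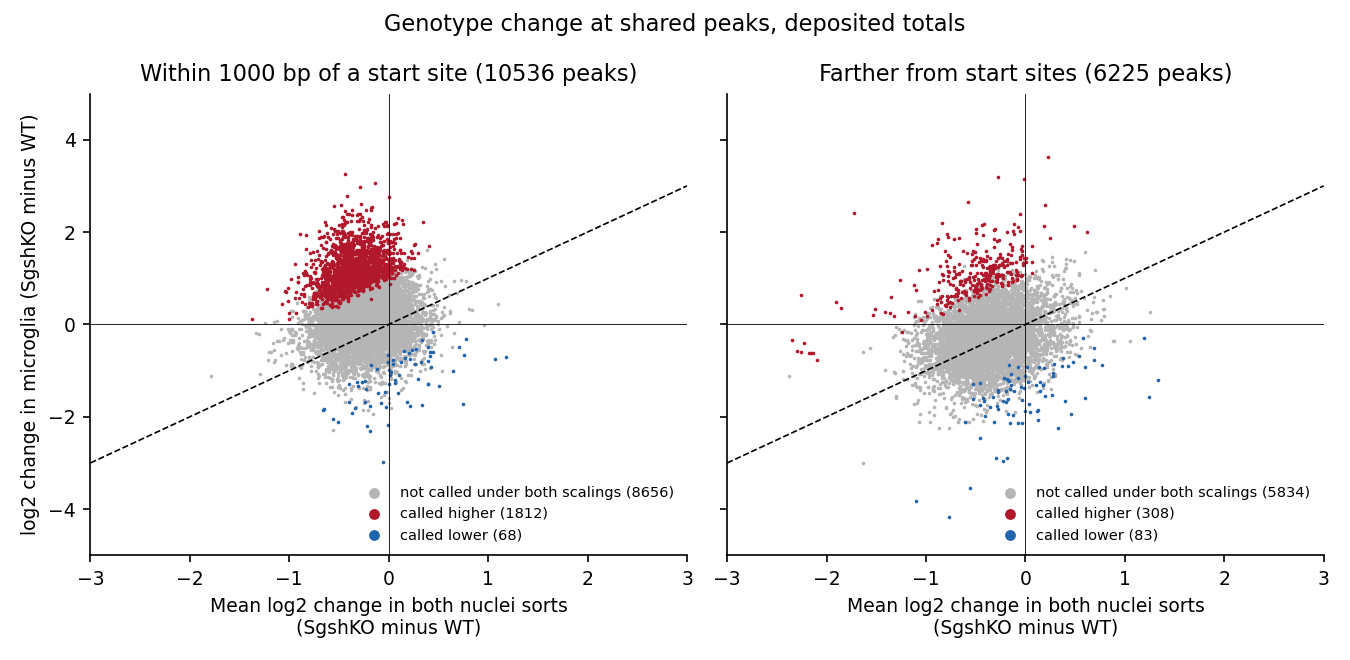
Each point is a shared peak, with the mean log2 change (SgshKO minus WT) of both nuclei sorts on the x axis and the change in microglia on the y axis, for 10536 peaks within 1000 bp of a start site (left) and 6225 farther away (right). Red points were called higher (1812 left, 308 right) and blue points lower (68 left, 83 right) under both scalings; the dashed line marks equal change, and most red points lie above it at a microglia change over 0 and a nuclei change under 0.

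Promoters carried most of the calls. Of the shared peaks, 10536 (62.9%) lay within 1000 bp of a transcription start site, at 8673 genes, against 25.9%, 21.7% and 24.4% of peaks in the 3 whole tables. At start sites the median interaction was 0.54 (0.20 after quantile normalization), with 1812 peaks called higher and 68 lower. Outside start sites the median was 0.10 (0.01), with 308 called higher and 83 lower. The medians of each sort follow. In microglia start-site peaks rose by a median of 0.27 and intergenic peaks changed by -0.28. In Olig2+ nuclei the medians were 0.05 and -0.22. NeuN+ nuclei gave -0.58 at start sites and -0.49 in intergenic peaks, an order that turned after quantile normalization (-0.20 and -0.31).

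Stronger peaks had larger interactions. From the lowest to the highest quintile of peaks by mean signal, the median interaction went from -0.06 to 0.89 with the deposited totals and from 0.01 to 0.29 after quantile normalization. Calls went from 57 higher and 48 lower in the lowest quintile to 1090 higher and 8 lower in the highest. The overlap required for a shared peak had a smaller effect: the 1078 peaks that overlapped by 50% to 55% had a median of 0.31, and the 837 just outside, at 45% to 50%, had 0.19. Across peaks, the changes in microglia and NeuN+ nuclei had a Pearson correlation of -0.04, and those in microglia and Olig2+ nuclei 0.24 (0.17 and 0.16 after quantile normalization, n = 16761 peaks of the same libraries).

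**Figure D2:**
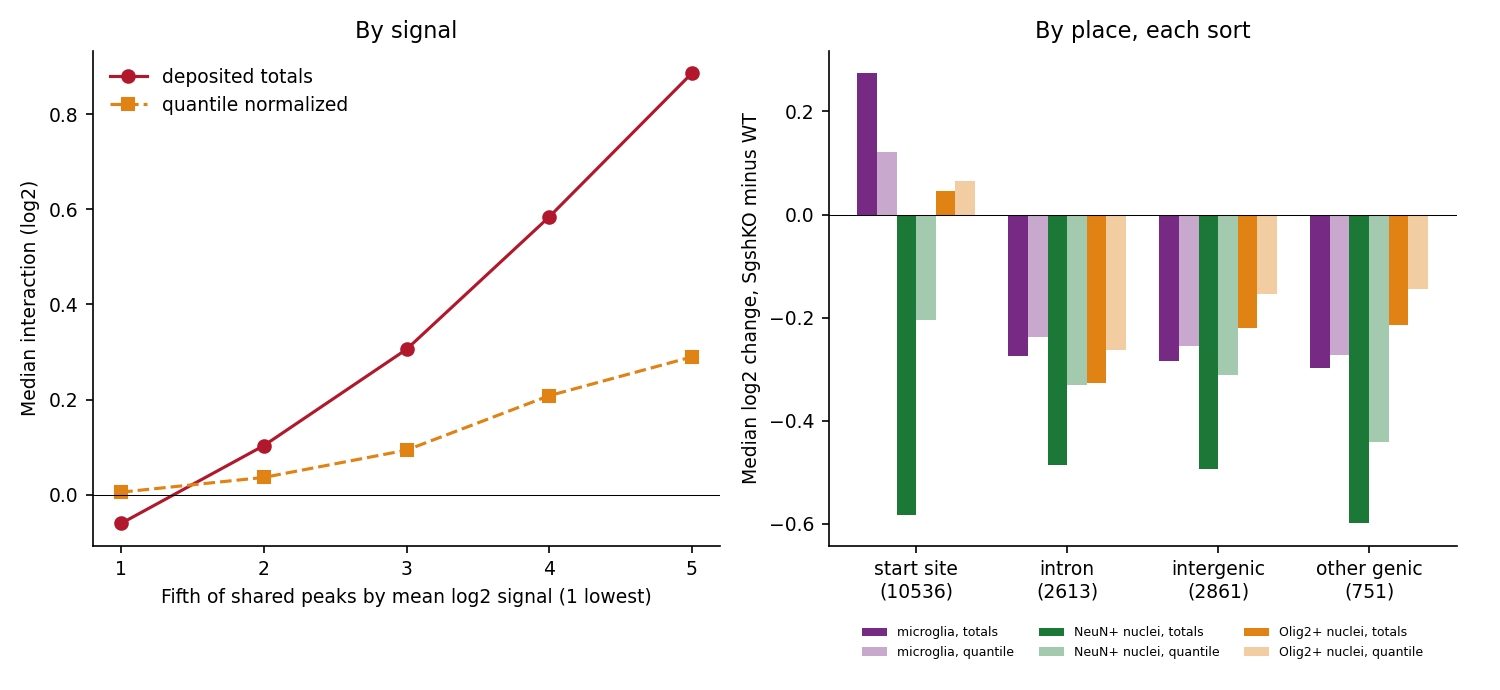
The left panel plots the median interaction (log2) for quintiles of the shared peaks by mean signal, with the deposited totals (red, -0.06 to 0.89) and after quantile normalization (orange, 0.01 to 0.29). The right panel shows the median log2 change in each sort by place; solid bars use deposited totals and pale bars quantile normalization, numbers of peaks stand in parentheses, and the start-site medians in microglia and Olig2+ nuclei are the bars above 0.

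The 8 largest increases among peaks of at least median signal were all within 250 bp of a start site. The largest was at Pknox1, which encodes a TALE homeodomain transcription factor (chr17:31564435-31564668, 222 bp upstream). It had 49.3 and 43.2 normalized tags in WT microglia and 314 and 645 in SgshKO microglia. NeuN+ nuclei had 581 and 537 against 312 and 299, and Olig2+ nuclei 851 and 807 against 794 and 853. The groups did not overlap in microglia or NeuN+ nuclei, where they moved in opposite directions, and they overlapped in Olig2+ nuclei. The interaction was 3.70 ± 0.21 (SE; limma adjusted p = 7.88e-15), and 3.21 ± 0.23 after quantile normalization (adjusted p = 3.85e-10).

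The peak 193 bp upstream of Ulk1, the kinase that starts autophagosome formation, had 106 and 90.7 tags in WT and 595 and 788 in SgshKO microglia (chr5:110810157-110810391). NeuN+ nuclei had 332 and 354 against 195 and 197. Olig2+ nuclei had 491 and 456 against 456 and 463. The groups lay apart in microglia and NeuN+ nuclei and overlapped in Olig2+ nuclei; the sorts were normalized in separate tables, so levels are compared within a sort only. The interaction was 3.21 ± 0.17 (adjusted p = 4.03e-15), made of 2.79 in microglia, -0.80 in NeuN+ and -0.04 in Olig2+ nuclei.

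At Fau, which encodes the ribosomal protein eS30 fused to a ubiquitin-like protein, the peak (chr19:6057728-6057937, 56 bp upstream) had 35.4 and 37.3 tags in WT and 277 and 353 in SgshKO microglia. It had 174 and 139 against 108 and 105 in NeuN+ nuclei and 174 and 167 against 199 and 209 in Olig2+ nuclei. Here both the microglia and the Olig2+ values were higher in SgshKO, without overlap, and the NeuN+ values lower. The interaction was 3.21 ± 0.22 (adjusted p = 2.46e-13).

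The same form, low in WT microglia and several-fold higher in SgshKO microglia, was seen at the 5 other promoters. Fam210b, a mitochondrial membrane protein, went from 97.7 and 64.4 to 516 and 774 in microglia, with an interaction of 3.27 ± 0.20 (adjusted p = 4.54e-14). Cenpc1, the centromere protein CENP-C, went from 89.9 and 73.7 to 410 and 574 (3.11 ± 0.21, adjusted p = 1.37e-13). Marf1, an RNA-binding factor known from oocyte meiosis, went from 50.1 and 40.7 to 210 and 362 (3.06 ± 0.20, adjusted p = 1.13e-13). These 6 promoters belong to genes of different processes. Plrg1, a spliceosome component, went from 76.9 and 68.6 to 405 and 501 (2.89 ± 0.19, adjusted p = 1.37e-13). Ahsa2, related to an activator of the chaperone HSP90, went from 108 and 103 to 435 and 767 (2.89 ± 0.20, adjusted p = 3.25e-13). At all 8 promoters the 2 SgshKO microglia libraries were both above both WT ones. The NeuN+ values were lower in both SgshKO libraries than in both WT libraries, with log2 changes of -1.18 to -0.54. With the deposited totals, the NeuN+ change was above 0 at only 10.3% of all shared peaks. After quantile normalization the NeuN+ change did not pass at Fau (0.02, limma adjusted p = 0.892), Ulk1 (-0.23, adjusted p = 0.0638) or Plrg1 (-0.22, adjusted p = 0.0763). It still passed at Pknox1, Fam210b, Cenpc1, Marf1 and Ahsa2.

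**Figure D3:**
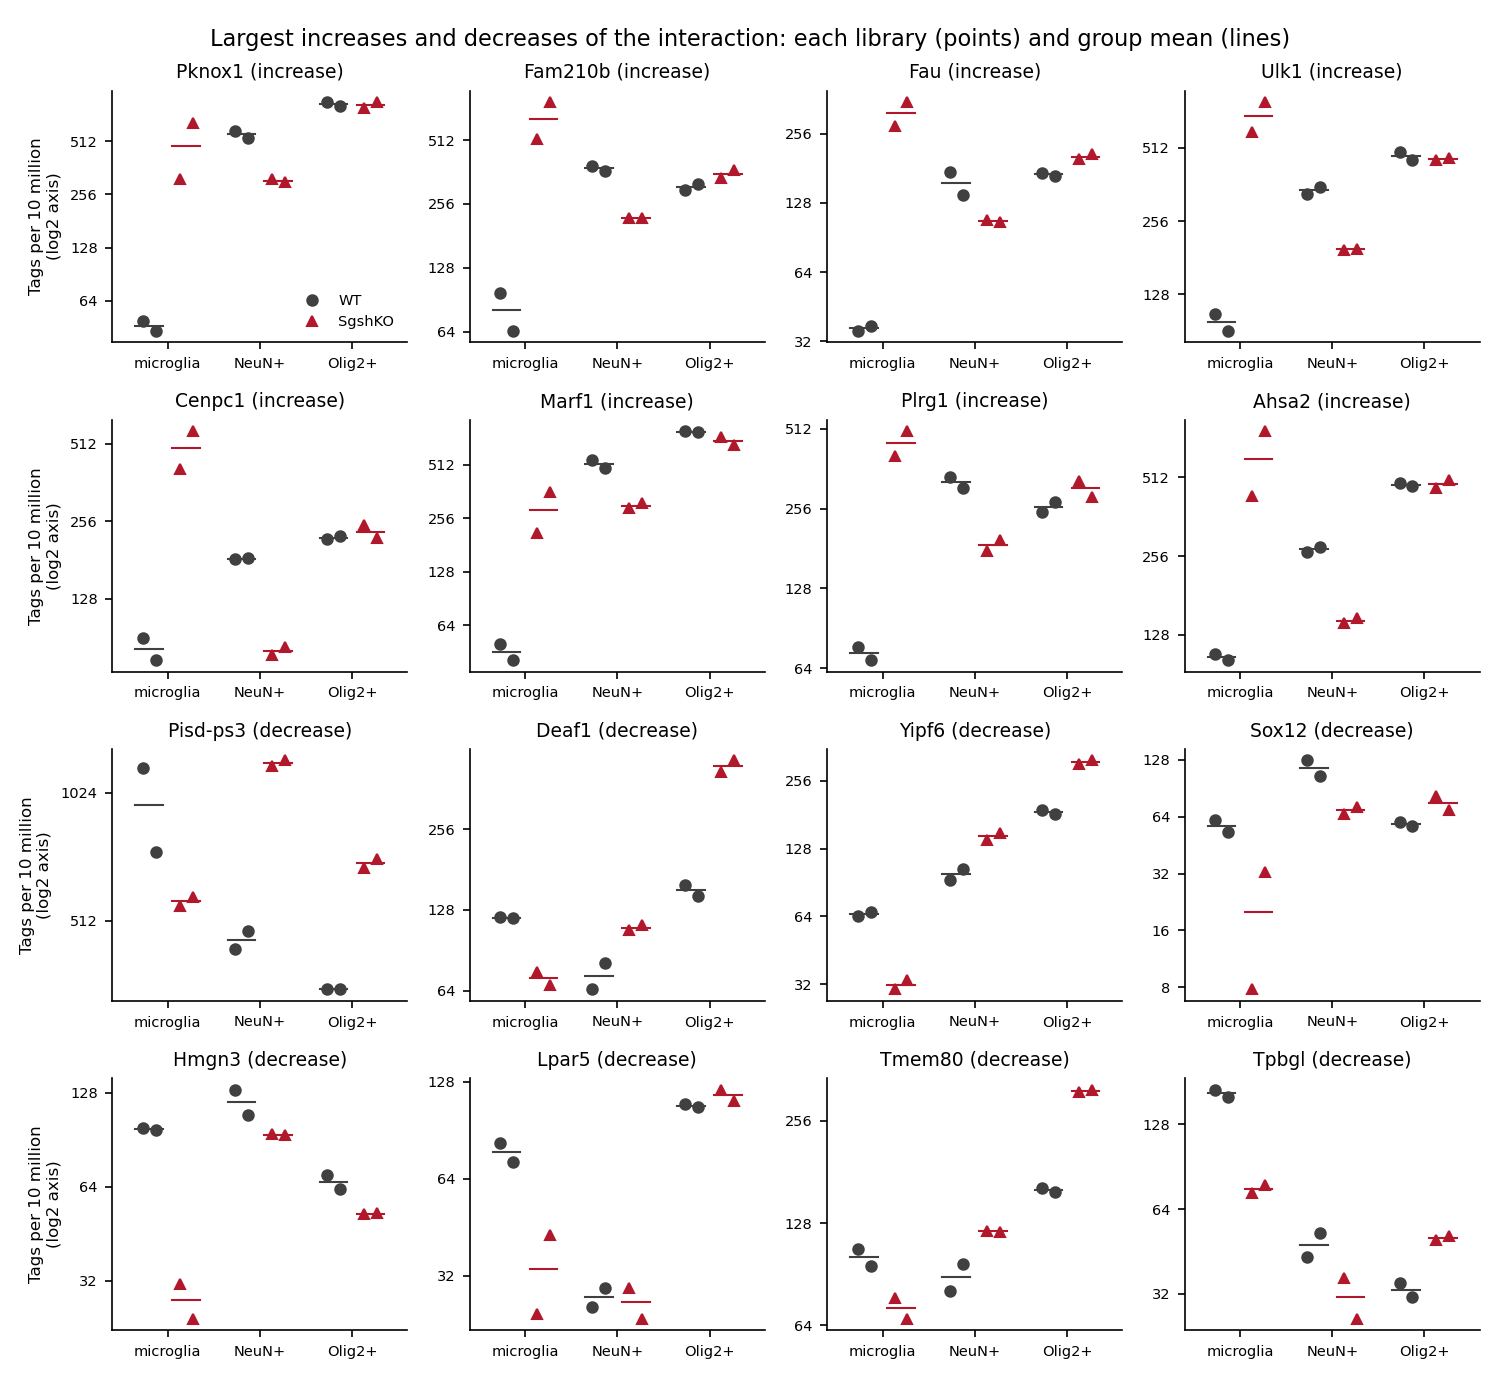
Normalized tags (log2 axis) in each of the 12 libraries at the 8 largest increases (top rows) and 8 largest decreases (bottom rows) of the interaction; circles are WT, triangles SgshKO, and lines are group means of 2 libraries. In the increases the WT microglia circles (49.3 and 43.2 at Pknox1) lie far below the SgshKO triangles (314 and 645), while NeuN+ triangles lie below their circles.

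The 3 peaks with the smallest p among those with opposite calls in microglia and both nuclei sorts were also promoters. Inpp5a, an inositol polyphosphate phosphatase, had 278 and 247 tags in WT and 1081 and 1592 in SgshKO microglia. In NeuN+ nuclei it had 610 and 544 in WT and 334 and 316 in SgshKO, and in Olig2+ nuclei 1207 and 1150 against 1090 and 1081. No groups overlapped, and the interaction was 2.79 ± 0.16 (adjusted p = 7.88e-15). Esrra, the nuclear receptor ERRα that acts on mitochondrial genes, had 314 and 292 against 1072 and 1192 in microglia, 432 and 407 against 237 and 215 in NeuN+, and 444 and 463 against 334 and 336 in Olig2+ nuclei (2.56 ± 0.16, adjusted p = 3.43e-14). Camsap1, which binds microtubule minus ends, rose by 1.97 in microglia and fell by 0.92 in NeuN+ and 0.31 in Olig2+ nuclei (2.59 ± 0.17, adjusted p = 1.12e-13). The Olig2+ falls were the smallest part in all 3 cases.

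The decreases were fewer and smaller, and in several of them the nuclei went up. At Deaf1, a transcription factor gene (chr7:141327503-141327708, 120 bp downstream of the start), microglia had 120 and 119 tags in WT and 75.3 and 66.8 in SgshKO. NeuN+ nuclei had 64.6 and 80.8 against 107 and 112, and Olig2+ nuclei 158 and 144 against 417 and 462. The interaction of -1.81 ± 0.22 (adjusted p = 5.16e-08) joined a rise of 1.53 in Olig2+ nuclei and of 0.60 in NeuN+ nuclei to a microglia change of -0.75, which did not pass in its own table (adjusted p = 0.136). The peak of the neighbouring gene Tmem80 moved the same way, at -1.20 ± 0.22 (adjusted p = 4.18e-05); the 2 peaks are adjacent and are not independent. Yipf6, a Golgi membrane protein on the X chromosome, went from 64.0 and 66.9 to 30.3 and 33.4 in microglia while it rose by 0.56 in NeuN+ and 0.73 in Olig2+ nuclei (-1.66 ± 0.22, adjusted p = 2.77e-07).

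In other decreases the microglia values fell, in some of them together with the NeuN+ values. Hmgn3, which encodes a nucleosome-binding protein, had 98.5 and 97.4 tags in WT and 31.2 and 24.1 in SgshKO microglia (chr9:83146522-83146795, 51 bp upstream). Its NeuN+ values were 131 and 108 against 94.2 and 93.3, and its Olig2+ values 69.5 and 62.9 against 52.3 and 52.5. The microglia fall of 1.80 passed in its own table (adjusted p = 0.000775) and exceeded the falls of 0.34 and 0.33 in nuclei, with an interaction of -1.46 ± 0.27 (adjusted p = 5.28e-05). Sox12, a SoxC transcription factor, had 61.4 and 53.4 against 7.79 and 32.5 in microglia (-1.58 ± 0.39, adjusted p = 0.00171); without the first SgshKO microglia library it was -0.61 and did not pass (adjusted p = 0.111). Lpar5, a lysophosphatidic acid receptor with this peak in an exon 10738 bp from the start, had 83 and 72.0 against 24.2 and 42.7 (-1.26 ± 0.32, adjusted p = 0.00209; adjusted p = 0.0508 without the first WT microglia library). Tpbgl had 170 and 160 against 72.7 and 78.0 in microglia (-1.12 ± 0.30, adjusted p = 0.00438), and missed the threshold without either WT microglia library (adjusted p = 0.0753 and 0.0673). NeuN+ nuclei also changed, by -0.72 at Sox12 and -0.61 at Tpbgl. Against NeuN+ nuclei alone neither Sox12 (-1.04, adjusted p = 0.0523) nor Tpbgl (-0.51, adjusted p = 0.247) passed with the deposited totals. After quantile normalization both did (adjusted p = 0.0325 and 0.0353). The largest decrease among called peaks of at least median signal was at the pseudogene Pisd-ps3 on an unplaced contig (-1.89 ± 0.16, adjusted p = 5.01e-11). It is uncertain because reads there may come from near-identical copies.

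Promoters of genes that act in lysosomes and in their regulation were read against the 17.2% of all start-site peaks called higher. Of 6 genes that act in the breakdown of heparan sulfate, chosen for that role, 4 had a shared start-site peak. These are too few to set against that share, and 1 of them was called. This was Hgsnat, which acetylates heparan sulfate within the lysosome. It had 142 and 126 tags in WT and 329 and 393 in SgshKO microglia, 184 and 171 against 97.0 and 77.5 in NeuN+ nuclei, and 159 and 168 against 164 and 160 in Olig2+ nuclei. The Hgsnat interaction was 1.94 ± 0.21 (adjusted p = 3.81e-09; 1.31 after quantile normalization). Gusb (0.67), a glucuronidase, and Ids (0.42), a sulfatase of the same route, did not pass (adjusted p = 0.114 and 0.383).

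A further list of 15 genes held Sgsh, the MiT factors and lysosomal and nutrient-sensing genes, and 10 of them had a shared start-site peak. Under both scalings 1 of these 10 was called, too few peaks to set against the 17.2% of all start-site peaks called higher. This was Neu1, the lysosomal sialidase, with 212 and 199 tags in WT and 448 and 411 in SgshKO microglia. Its interaction was 1.52 ± 0.18 (adjusted p = 4.77e-08). Among the 3 factor genes, Tfe3 had 1.05 (adjusted p = 0.000109) but 0.39 after quantile normalization (adjusted p = 0.185). Mitf had 0.47 (adjusted p = 0.108). Tfeb had -0.21 at the start site tested (adjusted p = 0.577), and -0.63 after quantile normalization (adjusted p = 0.0429). Other shared Tfeb peaks went both ways. A peak 100 bp upstream of another Tfeb start site had 0.61 (limma adjusted p = 0.0683), and 0.05 after quantile normalization. Peaks 7773 bp and 6931 bp from a start had 0.77 (adjusted p = 0.0400) and -0.17 (adjusted p = 0.858). No Tfeb peak was called under both scalings. Sqstm1, an autophagy receptor, had 0.77 (adjusted p = 0.00672), 0.01 after quantile normalization, and no call without the second WT microglia library (adjusted p = 0.176). Flcn (0.32), Mcoln1 (0.06), Hexa (-0.05) and Atp6v1h (-0.56) did not pass under either.

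The gene lists were read against the 12.6% of all shared peaks called higher and 0.901% called lower, and their medians against the overall 0.37. Start-site peaks alone had 17.2% called higher and a median of 0.54 (0.20 after quantile normalization). They made up 76 of 100 lysosome, 47 of 61 autophagy and nutrient sensing, and 33 of 40 cholesterol peaks. The lysosome share of 18% is thus near that of start-site peaks, and its median with the deposited totals is under theirs. Of 100 peaks of lysosome genes, 18 were called higher and 0 lower, with a median interaction of 0.46 (0.24 after quantile normalization). Galns, a lysosomal sulfatase of keratan and chondroitin sulfate, had the smallest p. Its start-site peak had 130 tags in both WT and 358 and 466 in SgshKO microglia, 436 and 375 against 176 and 211 in NeuN+ nuclei, and 430 and 441 against 374 and 382 in Olig2+ nuclei. The interaction at Galns was 2.27 ± 0.18 (adjusted p = 1.06e-11). Autophagy and nutrient sensing had 12 higher of 61 peaks, at 9 genes, and 0 lower, led by Ulk1. The median was 0.64 (0.30 after quantile normalization). Cholesterol genes had 9 higher of 40 peaks, at 6 genes, and 0 lower, with a median of 0.72 that was 0.11 after quantile normalization. Their smallest p was at Srebf2, the regulator of sterol synthesis, which went from 197 and 175 to 435 and 428 in microglia (1.64 ± 0.17, adjusted p = 1.42e-09).

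Lists tied to microglial state were near or below the share of all peaks. Genes of disease-associated microglia (DAM) had 2 peaks called higher of 28 and 0 lower (median 0.52; 0.16). Ctsl, a lysosomal protease on that list and on the lysosome list, went from 225 and 191 to 347 and 303 in microglia and fell by 1.17 in NeuN+ nuclei (1.30 ± 0.23, adjusted p = 3.10e-05). The Ctsl microglia change of 0.64 did not pass in its own table (adjusted p = 0.137). After quantile normalization Ctsl did not pass against Olig2+ nuclei alone (0.37, adjusted p = 0.304). Homeostatic microglia genes had 0 higher and 1 lower of 15 peaks, with a median of -0.10 (-0.23), under that of all peaks; over all alternatives it ran from -0.48 to 0.21. The lower one was an intronic peak of Entpd1, the ectonucleotidase CD39, at -1.25 ± 0.46 (adjusted p = 0.0355); it missed the threshold with voom (adjusted p = 0.0518) and when either WT microglia library, the second SgshKO microglia library or the first WT NeuN+ library was left out. Interferon genes had 1 higher of 16 (median 0.55; 0.18), at Stat2, an interferon signal transducer (1.27 ± 0.20, adjusted p = 3.58e-06). These lists hold few shared peaks, since many of their genes have none that all 3 sorts share.

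Stress and activity genes were called at or below the share of all peaks. Glucocorticoid-responsive genes had 3 higher and 1 lower of 59 peaks (median 0.32; 0.22), and immediate-early genes 4 higher and 1 lower of 81 (0.48; 0.13). Hif3a, a hypoxia-inducible factor subunit, had 241 tags in both WT and 89.8 and 95.7 in SgshKO Olig2+ nuclei, so that its interaction of 1.99 ± 0.25 (adjusted p = 9.23e-08) came mainly from a fall of 1.37 there and of 1.07 in NeuN+ nuclei. Gadd45b, a stress sensor, went from 250 and 184 to 489 and 511 in microglia (1.71 ± 0.19, adjusted p = 5.15e-09). At Klf4, a zinc finger factor, a peak 17587 bp from the start was lower (-1.09 ± 0.31, adjusted p = 0.00574). The call missed the threshold without either WT microglia library. Against NeuN+ nuclei alone the Klf4 peak did not pass with the deposited totals (-0.52, adjusted p = 0.239) and did after quantile normalization (-0.91, adjusted p = 0.0426). Heat shock and unfolded protein genes had 5 higher of 41 and 0 lower (0.48; 0.07), led by Hsf1, the heat shock factor, at 276 and 252 against 948 and 782 (1.92 ± 0.17, adjusted p = 1.18e-10).

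Among housekeeping lists, the share called higher was 17.4% for ribosomal protein and 8.06% for oxidative phosphorylation genes, against 17.2% of all start-site peaks; 74 of 92 and 50 of 62 of their peaks were at start sites. Ribosomal protein genes had 16 higher and 1 lower of 92 peaks (0.48; 0.18), and oxidative phosphorylation genes 5 higher and 1 lower of 62 (0.48; 0.22). Ndufb4, a complex I subunit, went from 39.8 and 29.6 to 102 and 93.8 in microglia (1.76 ± 0.23, adjusted p = 1.80e-07). The lower calls were intergenic peaks: near Cox5a, a cytochrome oxidase subunit, at 10.4 and 11.0 against 1.73 and 1.86 (-2.20 ± 0.56, adjusted p = 0.00229), and near Rps14 (-0.94 ± 0.36, adjusted p = 0.0495). The call near Rps14 was lost under 13 of the 27 alternatives that measured it, and that near Cox5a without the second WT microglia library.

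Clock genes had 9 higher and 2 lower of 42 peaks, with a median of 0.67 (0.35 after quantile normalization). The higher peaks, 21.4% against 12.6% of all shared and 17.2% of start-site peaks, lay at 7 genes. Peaks of the same gene are not separate members. Cry2, a repressor of the clock, went from 291 and 306 to 645 and 742 in microglia and from 452 and 402 to 181 and 219 in NeuN+ nuclei (1.87 ± 0.17, adjusted p = 9.66e-11). An exonic peak of Per1, another clock repressor, fell from 53.6 and 53.4 to 8.66 and 19.5 in microglia (-1.83 ± 0.59, adjusted p = 0.0174). The call missed the threshold without either WT or without the first SgshKO microglia library. Against NeuN+ nuclei alone, where the change was -1.09, the Per1 peak did not pass (-0.86, adjusted p = 0.326). The hour at which the mice were killed is not given in the labels.

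Genes of the other sorts' cell types were counted too. Synapse genes had 5 higher and 1 lower of 26 peaks, with a median of 0.34 (0.22 after quantile normalization). Myelin genes had 5 higher and 0 lower of 26, with a median of 0.13 (0.17). The myelin median turned to -0.22 with in-peak sums and -0.25 when centred. The share higher was 19.2% in both lists, against 12.6% of all shared peaks, and the calls lay at 5 synapse and 3 myelin genes. An intronic peak of Dlg4, the postsynaptic scaffold PSD-95, had 48.4 and 66.9 tags in WT and 158 and 372 in SgshKO microglia (2.57 ± 0.27, adjusted p = 2.33e-09). The start-site peak of Bsn, a presynaptic scaffold, was lower (-1.29 ± 0.42, adjusted p = 0.0173). This call was lost without the second WT microglia library (-1.02) and with voom (adjusted p = 0.0823). Against NeuN+ nuclei alone, where the change was -0.72, the Bsn peak did not pass (-0.56, adjusted p = 0.366). At the Mbp start site of transcript NM_010777, 36.3 and 33.9 tags in WT became 77.9 and 78.0 in SgshKO microglia. NeuN+ nuclei fell there from 74.8 and 66.6 to 31.4 and 27.9 (1.87 ± 0.38, adjusted p = 0.000195). Olig2+ nuclei had only 11.4 and 9.72 against 8.61 and 8.64 tags, from 13 to 22 reads a library. The peak stands for that start site only and was weak in the sort that holds the oligodendrocyte lineage. Summed over the start sites of the 9 neuronal markers, NeuN+ nuclei had 1055 and 954 tags against 549 and 573, and the sum at oligodendrocyte markers in NeuN+ nuclei was 140 and 120 against 67.0 and 71.7. The part of these sums in the interaction was not tested.

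**Figure D4:**
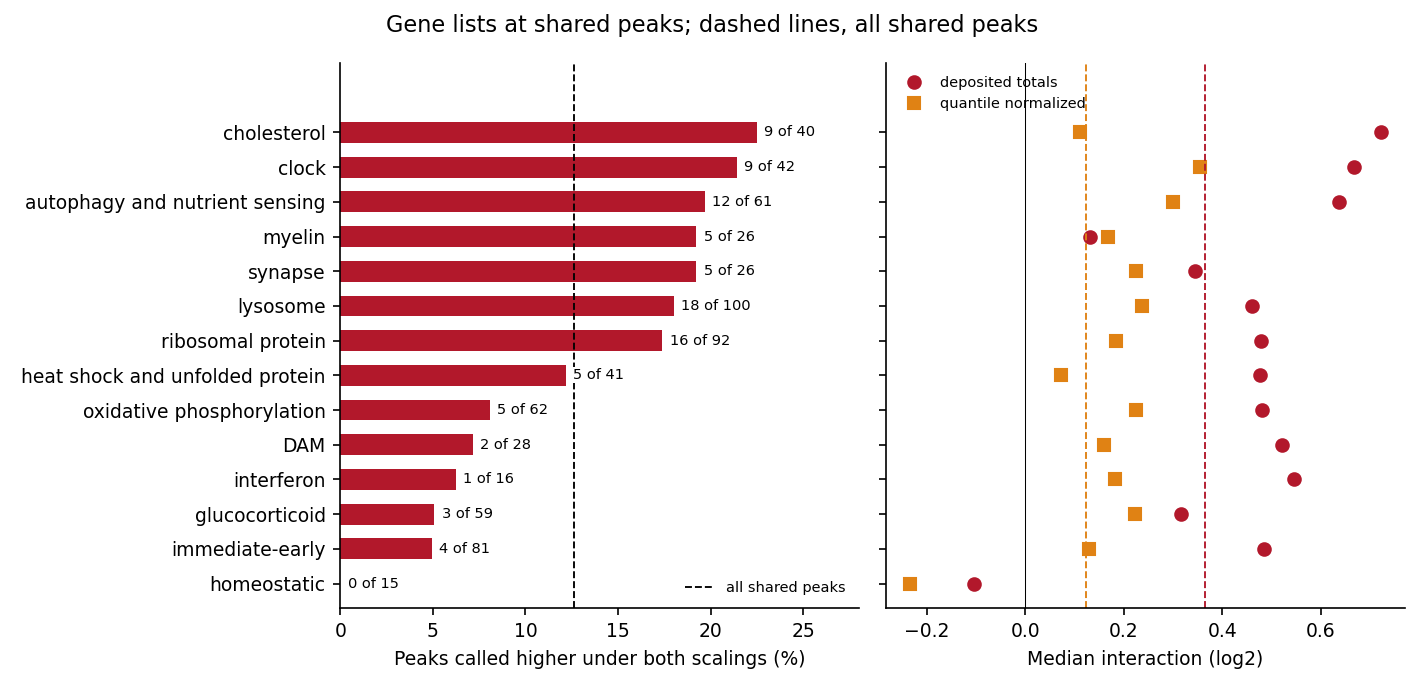
For each of the 14 gene lists, the left panel gives the percent of its shared peaks called higher under both scalings, with counts, and the right panel the median interaction (log2) with the deposited totals (circles) and after quantile normalization (squares). Dashed lines mark all shared peaks (12.6% called higher, medians 0.37 and 0.12). Start-site peaks, which make up most of several lists, had 17.2% called higher and medians of 0.54 and 0.20 (not drawn). Cholesterol, clock and autophagy lists lie highest on the left and homeostatic genes lowest.

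A GC-rich word was more frequent in the promoters called higher. Of the 10536 start-site peaks, 6377 were matched to 6300 RefSeq promoters of 300 bases (250 before to 50 after the start), and the word GCCCCGCC was searched on both strands. It stood in 57.5% of the 1289 promoters called higher (741), in 28.7% of the 4983 not called, in 4 of the 28 called lower, and in 14.2% of all 32851 promoters in the reference. Promoters without the word were called higher in 13.3% of cases, those with 1 copy in 27.3%, with 2 copies in 43.0% and with 3 or more in 58.5%. Over the same steps the median interaction was 0.50, 0.79, 1.05 and 1.27, and 0.14, 0.35, 0.61 and 0.82 after quantile normalization. The word CCACGCCC, of the kind bound by KLF factors, stood in 24.4% of the promoters called higher and 9.03% of those not called. Promoters with both words were called higher in 55.6% of cases, against 11.4% with neither. A match is a string of letters in the reference, and whether a factor was bound was not measured here.

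The levels by library show where the difference lay. With no GC box the median peak had 87.3 and 77.1 tags in WT and 104 and 92.8 in SgshKO microglia. With 3 or more copies it had 112 and 103 in WT and 202 and 239 in SgshKO microglia. Both SgshKO microglia libraries were thus above both WT libraries in either class, and the distance was wider in the second. In Olig2+ nuclei the medians with 3 or more copies were 155 and 156 against 176 and 189. NeuN+ nuclei fell in both classes, from 68.0 and 64.4 to 46.8 and 47.0 without the word and from 154 and 136 to 80.6 and 80.6 with 3 or more copies.

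**Figure D5:**
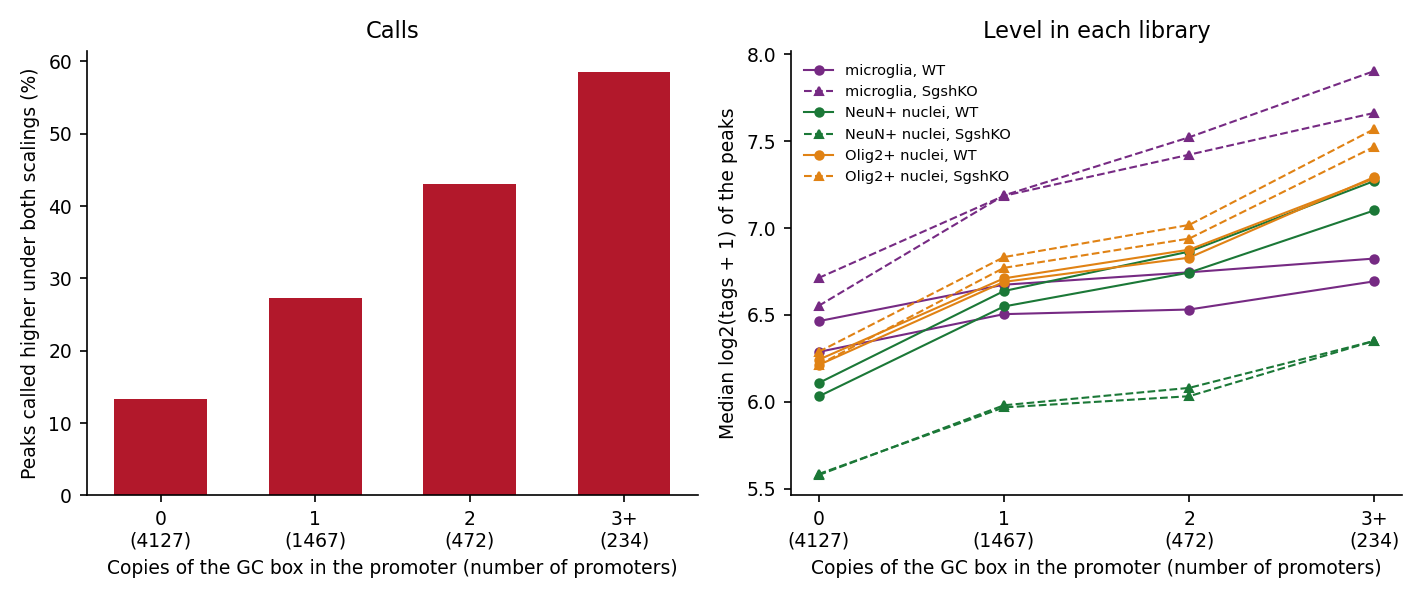
Copies of the GC box in the promoter (0, 1, 2, and 3 or more; number of promoters in parentheses) against the percent of peaks called higher under both scalings (left, from 13.3% to 58.5%) and the median log2(tags + 1) of these peaks in each of the 12 libraries (right). SgshKO microglia (dashed purple) separate from WT microglia (solid purple) more with each added copy, and SgshKO NeuN+ nuclei (dashed green) lie below WT in every class.

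The word was also counted among promoters of like GC content. Within each quintile of promoters by GC content, those with the word were called higher more often than those without, from 26.3% against 8.32% in the lowest quintile to 31.0% against 9.11% in the highest. Signal was not matched in this count. In WT Olig2+ nuclei the median peak had 74.7 and 73.1 tags with no copy and 155 and 156 with 3 or more. Stronger peaks were called higher more often, and the part of signal in the difference was not tested. The median GC content was 64.0% in promoters called higher and 62.0% in those not called, and its rank correlation with the interaction over the 6300 promoters was 0.13 (0.04 after quantile normalization). The words that follow showed smaller differences. GCCCCGCC was found by counting words in these same promoters, so its larger difference does not test it against them. The E-box CACGTG, the core of MITF, TFEB and TFE3 sites, stood in 13% of promoters called higher and 11.4% of those not called, against 7.15% of all promoters. The CRE TGACGTCA stood in 3.96% and 3.97%, the AP-1 word TGACTCA in 2.56% and 2.91%, and CCAAT in 41.2% and 41.7%.

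Promoters whose peak was not shared by the 3 tables, and so were not among those counted above, gave a second reading within each sort. In microglia 858 such promoters with the GC box had a median change of 0.26 and 2378 without it -0.02. In Olig2+ nuclei the medians were 0.19 (692 promoters) and 0.06 (1886). In NeuN+ nuclei they were -0.68 (871) and -0.50 (2644). These are values of the same 12 libraries, with no test.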

How the data were processed

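The deposited signal is, per the file headers, the number of tags per peak scaled so that each library totals 10000000 tags, in 1 table per sort. The deposited peak score, 540 to 1000 in each table, was used only in 1 alternative, which kept peaks of the highest score. Bowtie2, HOMER and mm10 are named in the submitters' processing notes without roles; handling of duplicates is not given in the sources used here. Dividing out the totals in the headers recovered whole reads for 100% of values (within 0.01). Symbols turned into dates were restored from Entrez numbers.

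Shared peaks had a one-to-one reciprocal overlap of 50%. Log2(tags + 1) of the 12 libraries entered 1 limma 3.58.1 model (R 4.3.3) of the 6 group means, with a variance factor per sort (microglia 1, NeuN+ 0.437, Olig2+ 0.357), intensity trend, two-sided tests and Benjamini-Hochberg adjustment over 16761 peaks at 0.05. Each ± is a standard error. Changes on this scale are understated for low peaks. Own-sort changes came from limma on whole tables. On simulated data for this comparison (16761 peaks, 200 changed) the fit recovered 29.0% of 2-fold and 78.0% of 4-fold changes, and 18 of 125 calls (14.4%) were false, above the nominal 5%. Without variance factors 40 of 164 were false.

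The members and gene lists were chosen with earlier results of these data known. Named peaks were the 8 largest increases and decreases of at least median signal called under both scalings with the same sign against each nuclei sort, 1 per gene, the smallest-p call per list and direction, start-site peaks of 15 genes (1 more under the rule is not reported here) and the 3 strongest opposite calls; the heparan sulfate genes and promoter words were added after the values were seen. Alternatives were pseudocounts, filters, scalings, overlaps, edgeR 4.0.16 and voom on recovered reads, a replicate block, thresholds and each library left out. Peak sequences need a genome and were not used here.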

Additional observations from a re-analysis of the deposited data

Results flagged for a closer look

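The genotype change in microglia differed from that in nuclei, by the limma test of the difference itself, at 4811 shared peaks against the mean of both nuclei sorts, at 6389 against NeuN+ nuclei and at 3218 against Olig2+ nuclei. Among the named peaks it was larger in microglia at Pknox1 (3.70), Fam210b (3.27), Fau (3.21), Ulk1 (3.21), Cenpc1 (3.11), Marf1 (3.06), Plrg1 (2.89), Ahsa2 (2.89), Inpp5a (2.79), Camsap1 (2.59), Dlg4 (2.57) and Esrra (2.56). Next came Galns (2.27), Hif3a (1.99), Hgsnat (1.94), Hsf1 (1.92), Cry2 (1.87), Mbp (1.87), Ndufb4 (1.76), Gadd45b (1.71), Srebf2 (1.64), Neu1 (1.52), Ctsl (1.30), Stat2 (1.27), Sgsh (1.27), Tfe3 (1.05) and Sqstm1 (0.77). It was smaller at Cox5a (-2.20), Pisd-ps3 (-1.89), Per1 (-1.83), Deaf1 (-1.81), Yipf6 (-1.66), Sox12 (-1.58), Hmgn3 (-1.46), Bsn (-1.29), Lpar5 (-1.26), Entpd1 (-1.25), Tmem80 (-1.20), Tpbgl (-1.12), Klf4 (-1.09) and Rps14 (-0.94). All values are differences of log2 changes with the deposited totals. They are to be read against the median of 0.37 over all shared peaks, 0.54 at start sites and 0.89 in the highest signal quintile. Of these 41 named peaks, 29 passed under every alternative that measured them.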

How the results depend on the processing

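Against the mean of both nuclei sorts, 4811 peaks were called, 2577 after quantile normalization, 3197 with in-peak sums (77.6% higher, against 96.0%) and 1632 of the 5278 peaks left at 80% overlap. Against NeuN+ nuclei the 6389 calls became 3042, 4012 and 2111, and 4073 when centred on the shared peaks (72.8% higher, against 97.1%). Against Olig2+ nuclei 3218 became 1061 at 80% overlap and 2011 at a threshold of 0.01; its share higher went from 84.5% to 67.5% (quantile) and 61.3% (in-peak). edgeR on recovered reads called 5227, voom 4790 and the fit without variance factors 5773. Leaving out 1 library gave 2633 to 5386, 4214 to 6997 and 1369 to 3529 calls for the 3 interactions, with the lowest counts without the second WT microglia library; against Olig2+ nuclei 2132 were left without the first. Of the 2120 higher and 151 lower peaks called under both scalings, 1899 and 104 were called with every other scaling, test, pseudocount and the block, and 1721 and 24 under each of the 12 omissions, so that most lower calls depend on single libraries (37 remained without the first and 42 without the second WT microglia library). No setting called any of them in the opposite direction.

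Within single sorts, microglia calls (2070) were 3539 with in-peak sums, 3612 with median of ratios, 1056 at 0.01 and 234 to 4296 with a library left out. NeuN+ calls (8629) were 2880 after quantile normalization, 5086 with in-peak sums, 5738 at 0.01, and 0 to 5286 with a library left out; limma called 0 without either SgshKO library, where 8293 and 7955 peaks had an unadjusted p under 0.05 and no other tool was run. Olig2+ calls (3688) were 1768 at 0.01 and 1471 to 3489 with a library left out.

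The replicate numbers were used as a block, although same-numbered libraries shared little (correlations of 0.02, 0.01 and 0.01 of their deviations): the replicate block gave 5337, 6899 and 3712 calls for the interactions and 4080 in microglia alone.

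Named peaks whose value changed sign had small values and, under the changed setting, none passed a test: after quantile normalization Mcoln1 was -0.18 and Flcn -0.13; with in-peak sums -0.30 and -0.041; centred -0.32 and -0.060. Mcoln1 was -0.027 with median of ratios and -0.04 with edgeR. With a library left out, Tfeb ranged from -0.48 to 0.059, Mcoln1 from -0.016 to 0.13 and Hexa from -0.19 to 0.092. With 2 libraries a group and a median of 17 to 39 reads per peak, fewer calls were made at weak peaks (57 higher and 48 lower in the lowest signal quintile). Medians of 4 lists crossed 0 over the alternatives: homeostatic (-0.48 to 0.21), myelin (-0.25 to 0.35), glucocorticoid (-0.062 to 0.55) and synapse (-0.035 to 0.72).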

Other observations

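At 10 shared peaks the mean change in both nuclei sorts was -2 or lower, a limit chosen after the values were seen. None lay at a start site and 8 were intergenic, near Rpp21, Cd209a, Kpna1, 4930433N12Rik, Gm28590, Mir6367, Timm8a1 and Gm19277; the others were near Il1rapl1 and Limd1. In NeuN+ nuclei they changed by -3.15 to -2.13 and in Olig2+ nuclei by -2.18 to -1.31. In microglia 9 of them also had negative changes, from -1.12 upward. In the interaction 9 were called higher, against 12.6% of all shared peaks. The interaction subtracts the same nuclei mean by which these peaks were picked, so the calls follow largely from that choice. The peak near Rpp21 had 619 and 487 tags in WT and 420 and 323 in SgshKO microglia, and 189 and 192 against 74.4 and 64.5 in Olig2+ nuclei. Whether these peaks share repeated sequence was not tested.

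Of the 3 shared peaks on the Y chromosome, 2 were called lower, both intergenic and nearest to G530011O06Rik; they had 43.2, 33.0, 37.2 and 38.1 tags in WT microglia and 0, 3.71, 0 and 6.50 in SgshKO microglia. The 371 shared peaks on the X chromosome had a median interaction of 0.63, the highest of any chromosome with more than 13 shared peaks, and 0.39 after quantile normalization.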
